A study of Mus musculus with 19 samples.

Results

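Phosphofructokinase and the enzymes that set its activity were followed in the quadriceps, a glycolytic thigh muscle, of a mouse model of spinal and bulbar muscular atrophy. The genes were taken by name, as every non-control probe that the array design assigns to Pfkm, Pfkl, Pfkp, Pfkfb1, Pfkfb2, Pfkfb3, Pfkfb4 or Fbp2, which gave 11 probes of 8 genes among 39429 probes and 30214 gene names. Male AR113Q mice, which are knock-in mice that carry an expanded glutamine tract, were compared with wild-type controls (CTR) on a congenic C57Bl6J background. Feeding of either normal chow (NCD) or fat-rich chow (HFD) began at 40 days of age, and muscle was taken at 180 days. Of the 19 samples, each read on 1 single-colour array, 5 were AR113Q and 5 CTR on the NCD, and 5 were AR113Q and 4 CTR on the HFD. The knock-in allele is carried in every tissue, not only in muscle, and the arrays do not read the length of the glutamine tract.

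Phosphofructokinase phosphorylates fructose 6-phosphate and is the committed step of glycolysis. The enzyme is a tetramer of the muscle subunit Pfkm, the liver subunit Pfkl and the platelet subunit Pfkp, and adult skeletal muscle relies on Pfkm. Its strongest allosteric activator, fructose 2,6-bisphosphate, is made and degraded by the bifunctional enzymes Pfkfb1 to Pfkfb4, among which Pfkfb3 is the inducible form with a kinase activity far above its phosphatase activity. Fbp2, the muscle fructose bisphosphatase, runs the step in reverse and is inhibited by the same activator.

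Levels are given as the log2 of the processed spot intensity minus the 75th percentile of that array, so that 0 is that percentile and 1 unit is a factor of 2. All 11 probes were well above background on all 19 arrays and none was saturated. Where a gene had several probes, the brightest was taken as its lead probe. Probes differ in binding strength, so levels were compared between samples and never between probes. The genes were chosen with their values in these samples known, and their levels and differences are therefore given as a description, with intervals and without p-values.

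Probes of 3 of the genes are shown, because they fix which stretch of the transcript each value reports. The second Pfkfb3 probe spans 1414 bases of the genome at chr2:11404189-11405602 (mm9, minus strand) and so crosses an exon junction. The Fbp2 probe likewise crosses a junction, within chr13:62950852-62955367 (mm9, minus strand), and the second Pfkfb4 probe lies in 1 exon at chr9:108910455-108910514 (mm9, plus strand).
Pfkfb3, second probe: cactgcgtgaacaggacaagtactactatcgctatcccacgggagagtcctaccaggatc
Fbp2: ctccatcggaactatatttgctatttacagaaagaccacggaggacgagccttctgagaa
Pfkfb4, second probe: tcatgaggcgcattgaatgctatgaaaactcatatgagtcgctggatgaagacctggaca

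The lead probes of Pfkfb3 and Pfkfb4 and the second probe of Pfkp each contain AATAAA, the letters of the polyadenylation signal. The Pfkfb3 lead probe sits at chr2:11393453-11393512 (mm9, minus strand), downstream of the junction probe. The Pfkm probe, at chr15:97962713-97962772 (mm9, plus strand), was printed on 10 spots of each array and the other 10 probes on 1 spot. It overlaps the study's own PCR assay, since bases 17 to 34 of the probe are the forward Pfkm primer.
Pfkm, forward primer: tagtgctacggctagatt

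Promoter sequence from RefSeq (GRCm38.p6, a different build from that of the probes) was found for all 8 genes, in 17 windows of 300 bases around annotated starts. The bases before the start are printed for Pfkfb3, the gene with the largest difference, with matches to ACGTG, the core of the hypoxia response element, in capitals. The core was read on both strands, and the palindrome CACGTG, which holds it on both, was counted once.
Pfkfb3, chr2:11502091-11502340, minus strand: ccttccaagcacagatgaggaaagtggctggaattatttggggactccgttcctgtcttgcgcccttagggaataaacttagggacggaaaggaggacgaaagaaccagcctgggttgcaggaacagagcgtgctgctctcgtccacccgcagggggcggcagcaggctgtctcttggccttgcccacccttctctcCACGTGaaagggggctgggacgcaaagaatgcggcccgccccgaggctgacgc
Pfkfb3, chr2:11553930-11554179, minus strand: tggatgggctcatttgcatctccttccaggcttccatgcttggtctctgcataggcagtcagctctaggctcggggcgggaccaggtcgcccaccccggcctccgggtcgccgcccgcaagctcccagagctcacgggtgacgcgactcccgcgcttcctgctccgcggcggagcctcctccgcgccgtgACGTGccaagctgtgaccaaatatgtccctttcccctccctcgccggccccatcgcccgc

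ACGTG occurred in 7 of the 17 windows and in 4 of the 8 genes, which were Pfkfb2, Pfkfb3, Pfkm and Fbp2, and in 19.6% of the 32851 windows of the whole table. A share by gene was not counted over the whole table, and the 8 genes have 1 to 4 windows each. The matches before the start in the genes other than Pfkfb3 are shown with their neighbouring bases. The hexamer CACGTG is among them in each of these genes, but its share over all windows was not counted.
Pfkm, chr15:98092443-98092468, plus strand: ttaagtatgcCACGTGaagtaagtaa
Pfkm, chr15:98108221-98108241, plus strand: gtggcaCACGTttgaattcaa
Fbp2, chr13:62858427-62858452, minus strand: ctatctgagtCACGTGgggtggggtt
Pfkfb2, chr1:130715828-130715853, minus strand: ccaagcgcccCACGTGactcgcccca
Pfkfb2, chr1:130714734-130714758, minus strand: gcagctgtatACGTGaggagtcagg

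The full androgen response element, an inverted repeat of AGAACA with 3 free bases between, was searched on both strands and found in none of the 17 windows and in 0.00913% of all windows. AGAACA alone was found in 3 of the 17 windows, in Pfkm, Pfkfb2 and Pfkfb4, and in 19% of all windows. The E-box CANNTG, which any CACGTG also matches, was found in 14 of the 17 windows and in 72.3% of all. A match describes these letters only, and binding was not measured here.

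Between AR113Q-NCD and CTR-NCD mice, 4 of the 11 probes passed an adjusted p of 0.05 in the limma fit over all probes, against a background of 17.6% of the 32026 probes tested. Of these 3 were lower (background 9.28%) and 1 was higher (background 8.29%). On the HFD 4 of the 11 probes passed (background 17.9%), again 3 lower (background 9.93%) and 1 higher (background 8%). In both comparisons they were the Pfkfb3 probe pair, the Pfkm probe and the Pfkl probe, and 3 of them also had a fold of at least 1.5 or at most 0.6 (background 4.33% on the NCD and 4.75% on the HFD).

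The arrays of both genotypes did not overlap for the same 4 probes. On the NCD this was so for 3 probes in the lower direction (background 8.29%) and 1 in the higher (background 7.31%), and on the HFD for 3 lower (background 8.3%) and 1 higher (background 7.41%). The genes were chosen with these contrasts known, and nothing is read from the counts. Bulk RNA cannot tell fewer fibers of a type from less RNA per fiber.

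**Figure D1:**
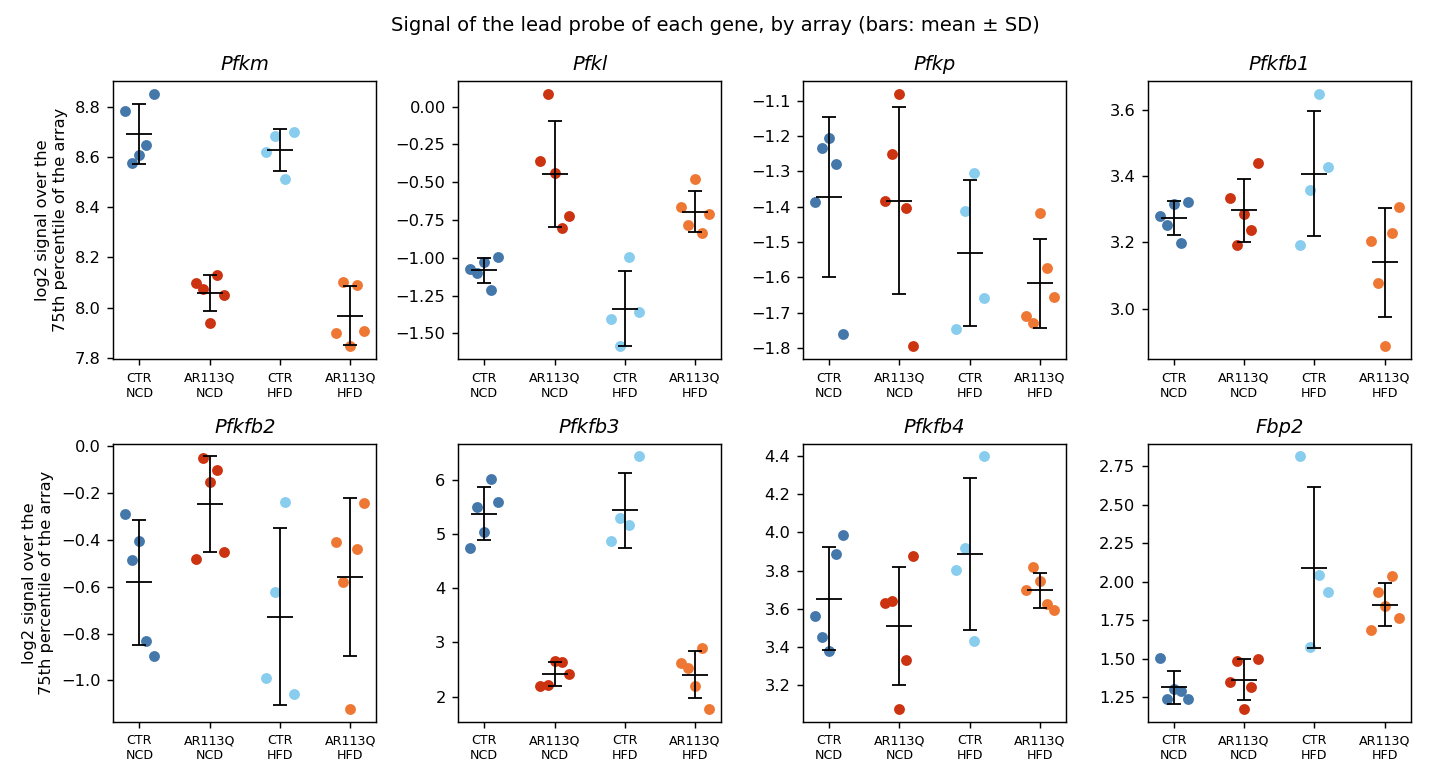
Log2 signal of the lead probe of each gene relative to the 75th percentile of the array (y axis, a separate scale in each panel) in the 4 groups (x axis), with 1 point per array and black bars for the mean ± SD. Pfkfb3 and Pfkm were lower and Pfkl higher on every AR113Q array than on any CTR array of the same diet, and in the other panels the genotypes overlapped.

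Pfkm, the catalytic subunit of muscle phosphofructokinase, was lower in AR113Q muscle on both diets. The 5 CTR-NCD arrays read 8.78, 8.58, 8.61, 8.65 and 8.85, and the 5 AR113Q-NCD arrays 8.10, 8.08, 7.94, 8.13 and 8.05. The 4 CTR-HFD arrays read 8.62, 8.68, 8.51 and 8.70, and the 5 AR113Q-HFD arrays 7.90, 8.10, 7.85, 8.09 and 7.91. Every AR113Q array lay below every CTR array, and the spread within a group was small.

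The Pfkm mean was 8.69 ± 0.12 (SD, n = 5) in CTR-NCD and 8.06 ± 0.073 (SD, n = 5) in AR113Q-NCD, a log2 fold change of -0.63 (SE 0.072, 95% interval -0.79 to -0.48), or 35.6% less signal. On the HFD the means were 8.63 ± 0.084 (SD, n = 4) and 7.97 ± 0.12 (SD, n = 5), a log2 fold change of -0.66 (SE 0.076, 95% interval -0.82 to -0.50). The size of this difference depended on the scaling. With quantile normalization the NCD log2 fold change was -0.25, and in the authors' processed table the HFD log2 fold change was -0.21, both in the same direction and past the adjusted threshold.

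Pfkl, the liver subunit, was higher in AR113Q muscle. The CTR-NCD arrays read -1.08, -1.10, -1.03, -1.21 and -0.997, close together, whereas the AR113Q-NCD arrays read -0.36, 0.086, -0.44, -0.80 and -0.72 and were more scattered. The CTR-HFD arrays read -1.41, -1.59, -0.996 and -1.36, and the AR113Q-HFD arrays -0.67, -0.78, -0.48, -0.83 and -0.71. On each diet the lowest AR113Q array lay above the highest CTR array.

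The Pfkl mean was -1.08 ± 0.083 (SD, n = 5) in CTR-NCD and -0.45 ± 0.35 (SD, n = 5) in AR113Q-NCD, a fold of 1.55 (log2 0.64, SE 0.14, 95% interval 0.34 to 0.94). On the HFD it was -1.34 ± 0.25 (SD, n = 4) in CTR and -0.70 ± 0.14 (SD, n = 5) in AR113Q mice, a fold of 1.56 (log2 0.64, SE 0.15, 95% interval 0.33 to 0.96). The muscle and the liver subunit thus differed in opposite directions between the genotypes.

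Pfkp, the platelet subunit, showed no such difference on either of its probes. The lead probe ranged from -1.80 to -1.08 and the second probe from -4.86 to -4.08 over the 19 arrays, with overlap of all groups. The log2 fold change of the lead probe was -0.010 (95% interval -0.29 to 0.27) on the NCD and -0.086 (95% interval -0.38 to 0.21) on the HFD. For the second probe the values were -0.079 (95% interval -0.41 to 0.25) and 0.076 (95% interval -0.28 to 0.43). The Pfkp probe pair did not follow each other across arrays (r = -0.18 over 19 arrays). The second Pfkp probe was dim, with a mean level of -4.52, where the array medians lay between -3.69 and -3.29.

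Pfkfb3, the inducible kinase isoform, had the largest difference of the 8 genes. Its lead probe read 4.74, 5.49, 5.04, 6.02 and 5.59 in CTR-NCD and 2.19, 2.22, 2.65, 2.64 and 2.42 in AR113Q-NCD muscle. On the HFD it read 4.86, 5.29, 5.17 and 6.43 in CTR and 2.62, 2.53, 2.20, 2.90 and 1.77 in AR113Q muscle. The highest AR113Q array, at 2.90, stayed well under the lowest CTR array, at 4.74.

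The lead probe mean was 5.38 ± 0.50 (SD, n = 5) in CTR-NCD and 2.42 ± 0.22 (SD, n = 5) in AR113Q-NCD, a 7.75-fold lower signal (log2 -2.95, SE 0.29, 95% interval -3.56 to -2.35). On the HFD the means were 5.44 ± 0.69 (SD, n = 4) and 2.40 ± 0.43 (SD, n = 5), an 8.19-fold lower signal (log2 -3.03, SE 0.30, 95% interval -3.68 to -2.39). In terms of signal, AR113Q muscle held 87.1% less on the NCD and 87.8% less on the HFD.

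The junction probe printed above reads a stretch upstream of the lead probe and gave a difference of similar size. It read -0.26, 0.18, -0.31, 0.78 and 0.40 in CTR-NCD and -3.07, -3.28, -2.97, -3.07 and -2.98 in AR113Q-NCD muscle, a 9.40-fold lower signal (log2 -3.23, SE 0.26). On the HFD it read -0.26, -0.097, -0.13 and 1.20 in CTR and -3.19, -2.93, -3.25, -2.71 and -3.58 in AR113Q muscle, a 9.92-fold lower signal (log2 -3.31, SE 0.28). Over the 19 arrays the probe pair had a Pearson r of 0.9956, and of 0.9456 after the group means were removed, so that both probes also moved together between arrays of a group.

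Pfkfb1, which encodes the liver and muscle forms of the bifunctional enzyme, ranged from 2.89 to 3.65. Its mean was 3.27 ± 0.051 (SD, n = 5) in CTR-NCD and 3.30 ± 0.095 (SD, n = 5) in AR113Q-NCD. On the HFD it was 3.41 ± 0.19 (SD, n = 4) in CTR and 3.14 ± 0.16 (SD, n = 5) in AR113Q mice. The genotypes overlapped on both diets. The log2 fold changes were 0.024 (95% interval -0.16 to 0.21) and -0.27 (95% interval -0.46 to -0.071), and the latter did not pass the adjusted threshold in the fit, although it did in 4 of 30 alternative fits.

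Pfkfb2, the heart isoform, ranged from -1.12 to -0.049, a wide range within each group. Its log2 fold change was 0.33 (95% interval -0.052 to 0.72) on the NCD and 0.17 (95% interval -0.24 to 0.58) on the HFD. Pfkfb4, known as the testis isoform, ranged from 3.07 to 4.40 on the lead probe, with log2 fold changes of -0.14 (95% interval -0.51 to 0.22) and -0.19 (95% interval -0.58 to 0.20). The second probe of Pfkfb4 gave 0.047 (95% interval -0.39 to 0.48) and 0.048 (95% interval -0.41 to 0.51), and the Pfkfb4 probe pair followed each other loosely (r = 0.45 over 19 arrays). This second probe was dim as well, with a mean level of -4.69.

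**Figure D2:**
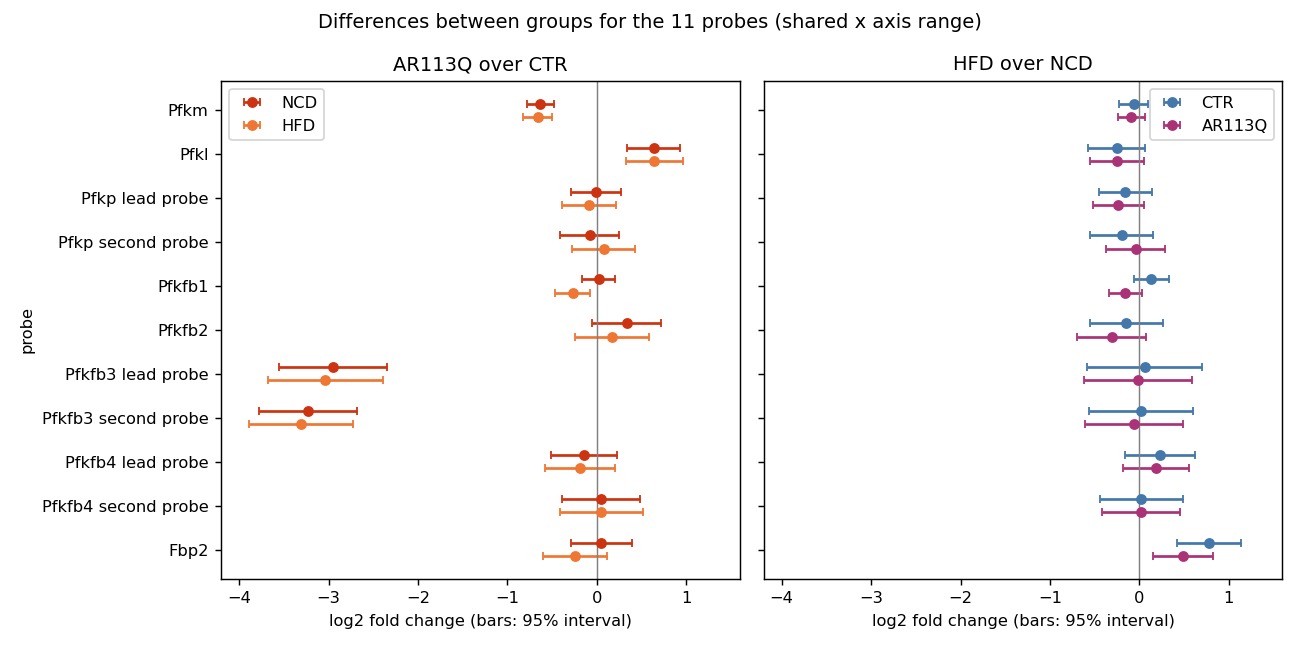
Log2 fold change with its 95% interval (x axis) of the 11 probes (y axis, grouped by gene) for AR113Q over CTR on each diet (left) and for HFD over NCD in each genotype (right). Both Pfkfb3 probes lie near -3 for the genotype, Pfkm and Pfkl lie on either side of 0, and for the diet the Fbp2 intervals lie above 0.

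Diet differences were small for most of the genes. None of the 11 probes passed the adjusted threshold in limma between AR113Q-HFD and AR113Q-NCD mice, against a background of 0.025% of all probes, or between CTR-HFD and CTR-NCD mice, against a background of 0%. At an unadjusted p under 0.05 there was 1 of the 11 probes in each diet comparison, that of Fbp2, against a background of 6.73% in AR113Q and 8.66% in CTR mice.

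Fbp2, which opposes phosphofructokinase, was the gene with the largest diet difference. The CTR-NCD arrays read 1.503, 1.24, 1.30, 1.29 and 1.24 and the CTR-HFD arrays 2.82, 1.58, 2.04 and 1.93. The AR113Q-NCD arrays read 1.35, 1.485, 1.17, 1.31 and 1.496 and the AR113Q-HFD arrays 1.68, 1.93, 1.84, 2.04 and 1.77. In both genotypes every HFD array lay above every NCD array. Such separation, in the higher direction, was seen for 1 of the 11 probes and for 1.29% of all probes in CTR, and for 1 of the 11 and 0.921% in AR113Q mice.

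The Fbp2 mean was 1.31 ± 0.11 (SD, n = 5) in CTR-NCD and 2.09 ± 0.52 (SD, n = 4) in CTR-HFD, a fold of 1.72 (log2 0.78, SE 0.17, 95% interval 0.42 to 1.14). In AR113Q mice it was 1.36 ± 0.13 (SD, n = 5) on the NCD and 1.85 ± 0.14 (SD, n = 5) on the HFD, a fold of 1.40 (log2 0.49, SE 0.16, 95% interval 0.15 to 0.83). Without CTR-HFD replicate 1, the highest array, the CTR diet difference was 0.54. Between the genotypes Fbp2 differed by 0.050 (95% interval -0.29 to 0.39) on the NCD and by -0.24 (95% interval -0.60 to 0.12) on the HFD, with overlap of the arrays.

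For Pfkfb3 the diet difference of the lead probe was 0.061 (95% interval -0.58 to 0.70) in CTR and by -0.020 (95% interval -0.62 to 0.58) in AR113Q mice. The diet difference of Pfkm was -0.065 (95% interval -0.23 to 0.096) and -0.090 (95% interval -0.24 to 0.061), and Pfkl by -0.25 (95% interval -0.57 to 0.063) and -0.25 (95% interval -0.55 to 0.051). The genotype by diet interaction, which asks whether the genotype difference depended on the diet, was passed by 0 of the 11 probes in limma, against a background of 0%, with 1 of the 11, that of Pfkfb1, at an unadjusted p under 0.05 (background 4.65%). The interaction of the Pfkfb3 lead probe was -0.081 (95% interval -0.96 to 0.80), a wide interval.

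The arrays lay on 5 slides, each with arrays of several groups, so the differences were also taken between arrays of the same slide. The AR113Q array was lower than the CTR array for the Pfkfb3 lead probe on 5 of 5 slides on the NCD (differences of -3.37 to -2.39) and on 4 of 4 on the HFD (-4.67 to -2.25). Pfkm was lower on 5 of 5 (-0.80 to -0.50) and 4 of 4 slides (-0.79 to -0.58), and Pfkl higher on 5 of 5 (0.28 to 1.19) and 4 of 4 (0.51 to 0.81). For Fbp2 the HFD array was higher than the NCD array on 4 of 4 slides in CTR (0.34 to 1.31) and on 5 of 5 in AR113Q mice (0.27 to 0.72). The arrays of the groups compared did not overlap for these probes, so the direction on each slide could not come out otherwise. Only the sizes within slides add to the description.

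**Figure D3:**
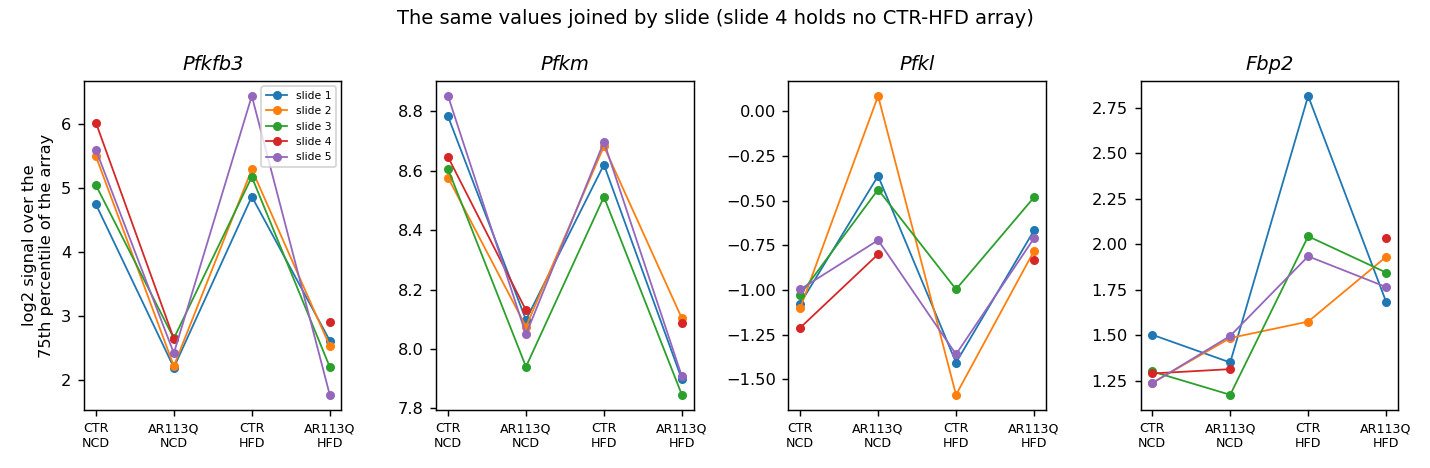
Log2 signal of the lead probes of Pfkfb3, Pfkm, Pfkl and Fbp2 relative to the 75th percentile of the array (y axis) in the 4 groups (x axis), with 1 line per slide joining its arrays. Slide 4 holds no CTR-HFD array. On every slide that holds both arrays of a comparison, Pfkfb3 and Pfkm are lower and Pfkl is higher in AR113Q than in CTR on the same diet. Fbp2 is higher on the HFD than on the NCD in each genotype on such slides.

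The other genes of the pathway were read from 4 lists of glycolysis, glycogen metabolism, gluconeogenesis and regulators of phosphofructokinase, of which 62 genes were tested. Between AR113Q-NCD and CTR-NCD mice 32 of the 62 had a probe that passed, 5 higher and 27 lower, and on the HFD 31, 6 higher and 25 lower. Over all genes 19.2% on the NCD and 19.8% on the HFD had such a probe in the same fit. With each array centred on its median the counts were 15 and 15. That centring called 7.46% and 7.66% of all probes, against 17.6% and 17.9% in the main fit, and its share by gene was not counted. The lists were written with earlier results of these data known, so the counts are a description and nothing is read from them. No gene of the lists passed for the diet in limma in either genotype. At an unadjusted p under 0.05 there were 11 in AR113Q and 10 in CTR mice. The share of all genes at that threshold was not counted, and of all probes it was 6.73% in AR113Q and 8.66% in CTR mice.

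In glycolysis outside the phosphofructokinase step more genes fell than rose in AR113Q muscle. Of 23 genes tested 11 fell and 1 rose on the NCD, with a median log2 fold change of -0.32 against -0.053 over all probes, and 10 fell and 4 rose on the HFD, with a median of -0.28 against -0.070. Of 21 genes of glycogen metabolism 11 fell and 2 rose on the NCD and 11 fell and none rose on the HFD, with medians of -0.26 and -0.43. Of 7 genes of gluconeogenesis and of the removal of fructose bisphosphates 2 fell on each diet, and of 11 regulators 3 fell and 2 rose on the NCD and 2 fell and 2 rose on the HFD. Hk2, the hexokinase that feeds the pathway in muscle, fell from 3.93 ± 0.25 (SD, n = 5) to 3.49 ± 0.21 (SD, n = 5) on the NCD (log2 -0.44, SE 0.15, limma adjusted p = 0.0499, arrays overlapping) and from 3.95 ± 0.22 (SD, n = 4) to 3.12 ± 0.27 (SD, n = 5) on the HFD (log2 -0.82, SE 0.16, limma adjusted p = 0.00148).

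Gapdh and Pgk1, which act below phosphofructokinase, fell as well. Hk2, Gapdh and Pgk1 are named because the study measured them by PCR and reported them lower in AR113Q muscle, so their p-values are given as a description. The study also reported lower expression of Pfkm and Pfkfb3 in AR113Q quadriceps, and of Pfkfb3 in muscle of patients. All 7 probes of Gapdh were lower, by -0.77 to -0.32 on the NCD and -0.66 to -0.45 on the HFD (largest limma adjusted p = 0.00682 and 0.000946), although Gapdh has many processed pseudogenes and its probes may share signal with them. Both probes of Pgk1 were lower, by -0.46 and -0.39 on the NCD and by -0.33 and -0.36 on the HFD (largest limma adjusted p = 0.00439 and 0.0371).

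Among all 4 lists, large falls on the NCD were those of Prkag3 and Phka1. Prkag3, the muscle gamma subunit of AMP-activated protein kinase, fell 2.70-fold (limma adjusted p = 0.000682), and Phka1, the muscle alpha subunit of phosphorylase kinase, fell 2.67-fold (limma adjusted p = 6.3e-06). The largest rises were of the glycogen phosphorylase gene Pygl (1.83-fold, limma adjusted p = 0.0432), the branching enzyme Gbe1 (1.70-fold on 1 of 2 probes, limma adjusted p = 0.0143) and the phosphoglycerate mutase Pgam1 (1.36-fold, limma adjusted p = 0.0187). The arrays of both groups overlapped for Pygl and did not overlap for the other 4 genes. Other genes for these enzymes did not rise. Pygm, also a glycogen phosphorylase gene, fell (log2 -0.50, limma adjusted p = 7.03e-05), and Pygb was at -0.019 (limma adjusted p = 0.962). Pgam2, also a phosphoglycerate mutase gene, fell (log2 -0.76, limma adjusted p = 1.85e-05).

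On the HFD Gys2, the liver glycogen synthase, fell 3.03-fold on 1 of its 2 probes (limma adjusted p = 0.0159) and Phka1 2.79-fold (limma adjusted p = 7.69e-06). Hk1 rose 1.41-fold on 1 of 3 probes (limma adjusted p = 0.0133) and Akt2, an insulin-signalling kinase, 1.35-fold on 1 of 4 probes (limma adjusted p = 0.0208). On the brightest Hk1 probe the log2 fold change was -0.077 (limma adjusted p = 0.621). Ldhc, the testis lactate dehydrogenase, was not well above background on any CTR-HFD array and was so on 4 of 5 AR113Q-HFD arrays, which gives at least 3.13-fold higher signal on 1 of its 2 probes (limma adjusted p = 0.0361). The arrays of both groups overlapped for this probe, and AR113Q-HFD, where it was brighter, by itself supplied the 4 arrays that the filter on dim probes asks for. On the other, brighter Ldhc probe the log2 fold change was 0.065 (limma adjusted p = 0.933).

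**Figure D4:**
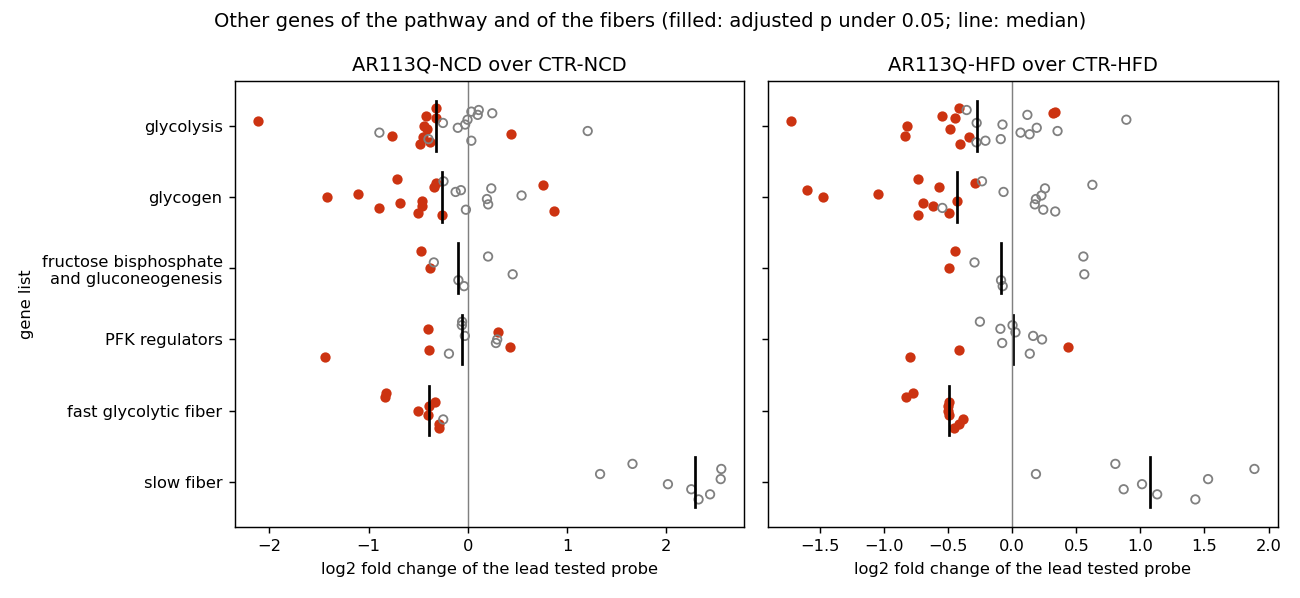
Log2 fold change of AR113Q over CTR (x axis) on the NCD (left) and the HFD (right) for each gene of 4 pathway and 2 fiber lists (y axis), read from the brightest tested probe, with filled points where that probe passed an adjusted p of 0.05 and a black line at the list median. The glycolysis, glycogen and fast glycolytic fiber medians lie below 0, and the slow fiber genes lie above 0 with no filled point.

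Markers of fiber types differed between the genotypes as well. All 5 skeletal muscle markers were well above background on all 19 arrays, and 3 of them fell on the NCD while 3 fell and 1 rose on the HFD. Of 9 fast glycolytic fiber genes 8 fell on the NCD and 9 on the HFD, with medians of -0.39 and -0.50. The Pfkm log2 fold changes were -0.63 and -0.66. Over all genes 19.2% on the NCD and 19.8% on the HFD had a probe that passed in either direction. The fiber lists were not recomputed with other scalings, on which the size of the Pfkm difference depended. The paper, whose limit for a fall was a fold of at most 0.6, lists Tnni2, Myh4 and Pvalb of these genes as unchanged. On the NCD the log2 of the summed signal of the 9 genes lay between 11.43 and 11.71 in AR113Q and between 11.86 and 12.04 in CTR muscle. On the HFD it lay between 11.36 and 11.58 in AR113Q and between 11.87 and 12.08 in CTR muscle. Over the 19 arrays Pfkm followed this sum with a Pearson r of 0.951 and Pfkfb3 with 0.873, values that include the difference between the genotypes. After the group means were removed, r was 0.603 for Pfkm and -0.187 for Pfkfb3. The part of the fiber make-up in the differences of these genes was not tested.

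The 8 slow fiber genes had positive log2 fold changes in both genotype comparisons, with medians of 2.29 and 1.07. None passed the adjusted threshold in limma, and 4 on the NCD and 0 on the HFD had an unadjusted p under 0.05. The share of all probes at that unadjusted threshold is not given here. It is at least the 17.6% (NCD) and 17.9% (HFD) that passed the adjusted threshold. The log2 of the summed signal of the slow fiber genes varied widely. It lay between 8.28 and 9.30 in AR113Q and 3.84 and 8.52 in CTR muscle on the NCD, and between 3.26 and 7.93 in AR113Q and 2.31 and 8.76 in CTR muscle on the HFD.

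Pfkfb2 was high on the arrays where the slow fiber sum was high (Pearson r 0.824, Spearman rho 0.786, r 0.746 after the group means were removed, r 0.824 without the 2 arrays farthest from the median sum). Pfkfb4 was low on those arrays (r -0.752, rho -0.732, r -0.686 after the group means were removed, r -0.64 without those 2 arrays). The second Pfkfb4 probe followed the sum less closely (r -0.333, r -0.443 after the group means were removed). These are descriptions over 19 arrays, chosen from 16 such relations and given without a test, and the levels share the scaling of each array.

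**Figure D5:**
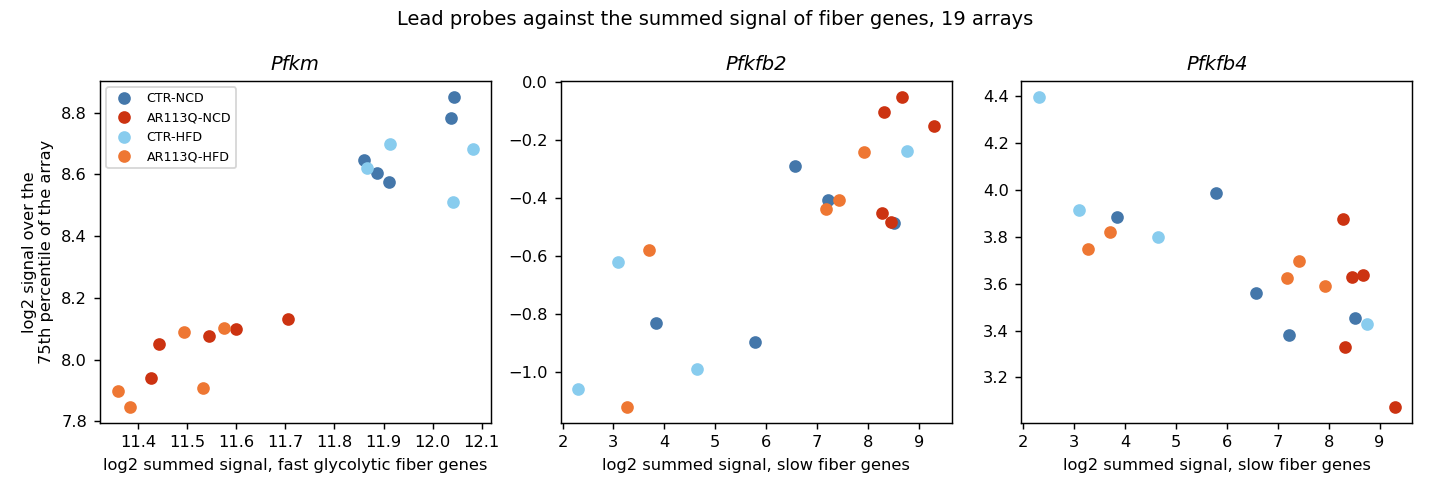
Log2 signal of the lead probes of Pfkm, Pfkfb2 and Pfkfb4 (y axis) against the log2 summed signal of fast glycolytic fiber genes (Pfkm) or slow fiber genes (Pfkfb2, Pfkfb4) (x axis), with 1 point per array coloured by group. Pfkm falls into separate CTR and AR113Q clusters, whereas Pfkfb2 rises and Pfkfb4 falls along the slow fiber sum in all groups.

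Markers of other cell types were present too. On the NCD the log2 summed signal of macrophage genes lay between 4.04 and 4.39 in AR113Q and 3.96 and 4.48 in CTR muscle, and on the HFD between 3.98 and 4.33 in AR113Q and 4.05 and 4.34 in CTR muscle. That of white adipocyte genes lay between 5.88 and 7.68 over all arrays. None of the 5 macrophage and 7 white adipocyte genes passed between the genotypes in limma on either diet, with 1 macrophage gene on the NCD and 1 white adipocyte gene on the HFD at an unadjusted p under 0.05. Of 3 brown adipocyte genes 1 was well above background on all arrays, and on the NCD the log2 of their summed signal lay between 0.46 and 4.95 in AR113Q and between -0.89 and 0.48 in CTR muscle, and on the HFD between -0.23 and 1.92 in AR113Q and between -2.28 and 1.71 in CTR muscle. The 2 that were tested had a median log2 fold change of 2.91 on the NCD and 1.24 on the HFD. None of the 2 that were tested passed, with 2 on the NCD and 0 on the HFD at an unadjusted p under 0.05. Of 4 endothelial genes none passed on the NCD, with 0 at an unadjusted p under 0.05, and 1 fell on the HFD. Of 3 Schwann cell and 3 red blood cell genes none passed on either diet in limma, with 1 Schwann cell gene on the HFD and 0 otherwise at an unadjusted p under 0.05. For the unadjusted counts of these cell types the share of all probes was likewise at least 17.6% on the NCD and 17.9% on the HFD. The part of these cells in the differences was not tested.

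The genes most alike to each member, by Pearson r of the lead probes over 19 arrays among 22567 genes, were taken without a test. They were Polk (0.975), BC062258 (0.974) and Gm10605 (0.974) for Pfkfb3, and Gm6981 (0.990), the sarcomeric protein gene Myoz1 (0.990) and the muscle creatine kinase gene Ckm (0.988) for Pfkm. Nfe2l1 (0.921), Smap2 (0.903) and Acot11 (0.903) were nearest to Pfkl. These r include the difference between the genotypes.

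Among the other members, Pfkfb2 was nearest to Prkg1 (0.943), Got1 (0.937) and Lrrc52 (0.932), and Pfkfb4 to Lrrc61 (0.924), A630007B06Rik (0.912) and Zwint (0.912). Pfkfb1 was nearest to the mitochondrial genes Hibch (0.878), Mrpl4 (0.866) and Tufm (0.849). Pfkp was nearest to Klhl6 (0.850), Nrp1 (0.837) and Tnfrsf1a (0.821), and Fbp2 to Ipo13 (0.744), 2810468N07Rik (0.737) and D130062J10Rik (0.729), the loosest of the 8.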

How the data were processed

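The deposited files hold spot intensities that the authors obtained from Cy3-labelled RNA with, per the labels, Feature Extraction 10.7.3.1. Per the file headers local background and spatial trends were removed, and arrays were not scaled to each other. A deposited table of log2 values by the authors, whose scaling is not given in the sources used here, served as an alternative.

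Here log2 was taken, spots marked as outliers were dropped, replicate spots were averaged and each array's 75th percentile was set to 0. Probes were tested if 0.5 or more of their spots rose well above background on 4 or more arrays, which kept 32026 of 39429. Precision is limited by the number of arrays, and 67.1% to 80.2% of probes per array were well above background.

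The 4 groups follow the sample titles and were fitted together in limma 3.58.1 (R 4.3.3) without covariates, and p-values were adjusted over all tested probes (Benjamini-Hochberg, threshold 0.05). The fit was tested on simulated data. The labels do not say outright that each sample is a separate mouse, so p-values measure the spread between these samples. Members and gene lists were chosen with earlier results of these data known. The lists covered pathway genes and markers of muscle, fiber types, adipocytes, macrophages, endothelium, blood and Schwann cells. All member probes are named, together with Hk2, Gapdh, Pgk1, the 3 list genes with the largest called change in each direction, and for each member the 3 genes with the highest r. Not every gene that this rule sets is reported here. Sequences came from the array design, the study's primer list and RefSeq. Alternatives were other scalings, background correction and filters, the authors' table, outlier spots kept, slide and replicate blocks, array weights, fold thresholds and each array left out.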

Additional observations from a re-analysis of the deposited data

Results flagged for a closer look

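Single arrays stood apart from the rest of their group for 3 of the 44 member probe and group sets examined, and chance flags about 1 set in 20. The second Pfkfb3 probe read 1.20 in CTR-HFD replicate 4 against -0.097 in the next array, and the lead probe was highest on the same array. The second Pfkp probe read -4.14 in AR113Q-HFD replicate 1 against -4.60 in the next array. Fbp2 read 1.503 in CTR-NCD replicate 1 against 1.30 in the next array, which still lay below every CTR-HFD array. Among the other named genes, Pgam1 read 3.002 in CTR-HFD replicate 3, Ldhc -2.81 in AR113Q-NCD replicate 5, and the Pgk1 probe pair 6.66 and 6.52 in AR113Q-NCD replicate 3, with 1 probe of Pgk1 at 7.36 in CTR-NCD replicate 5. No named gene had a genotype difference that depended on the diet at an adjusted p of 0.05 in limma.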

How the results depend on the processing

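The count of member probes past the threshold was 4 in both genotype comparisons and 0 for the diet and the interaction, and only normexp background correction changed it by over 1.5 times, to 2 and 2, which were the Pfkfb3 probe pair. The Pfkfb3 probes passed in all 30 alternatives in both comparisons. Pfkm was lost under normexp and under the fold thresholds, and Pfkl under normexp. The count of pathway genes past the threshold, 32 on the NCD and 31 on the HFD, was 15 and 15 with median centring, 6 and 9 with normexp and 10 and 11 with the fold thresholds. The cause was not tested, apart from the fold thresholds, which keep fewer genes by construction. Over all probes, where 17.6% and 17.9% were called, normexp left 2.55% and 2.91% and median centring 7.46% and 7.66%. Normexp also moved the median of all probes to -0.55 between the genotypes on the NCD and to -0.64 between the diets in CTR mice. Leaving out each array in turn gave 4 to 4 and 4 to 5 member probes, 0 to 0 for the diet comparisons and the interaction, and 25 to 33 and 21 to 32 pathway genes. No called member difference changed sign in any alternative. Of 1585 recomputed member differences 1560 moved by less than 1 SD between replicates. The 25 that moved further were 21 of 55 under normexp, 2 of 55 under quantile normalization and 2 of 45 in the authors' values. Many of the 1585 could not move. A filter on probes leaves the fold of a probe as it is, and leaving out an array changes only comparisons that use its group.

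Samples with the same replicate number deviated together (r over 0.1) in 19 of 27 pairs, short of all, so the numbers were not taken as pairs, although 14 of 19 arrays correlated best with an array of their own number. Number and slide largely coincide. The 19 pairs were among the 24 that also shared a slide, against 0 of 3 with the same number on different slides and 3 of 3 with different numbers on the same slide. With a replicate block the member counts were 4 on the NCD and 5 on the HFD, where Pfkfb1 was added, and the whole table had 22.5% and 21.8% of probes called. With a slide block 24.5% and 28% were called, and the member counts stayed at 4 and 4. The share of called probes that were higher, 47.2% on the NCD and 44.6% on the HFD, was 56% and 61% with median centring and 53.7% and 56.7% with quantile normalization and 53.9% and 57% in the authors' values.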
